A study of Homo sapiens with 9 samples.

Results

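CXCL8, CXCL1, CXCL2, CXCL3, IL6, IL11, LIF, IL1A, IL1B and IL7 are 10 cytokine genes that a tumour cell can itself transcribe and secrete. They were followed on arrays of MDA-MB-231, an established human line of triple-negative breast cancer cells. The members were chosen by gene symbol: each probe set that the HG-U133 Plus 2.0 annotation assigns to 1 symbol only was taken if that symbol was one of the 10. The rule found 16 probe sets for the 10 genes, among 54613 probe sets that are not controls. It left none of the 10 genes without a probe set, and no filter on low values was used.

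The symbols were chosen with results of these same 9 arrays known, and which values led to the choice is not recorded, so every difference between the 3 groups counts as used. Each one given for a member is therefore a description with its error, and no p-value is attached to it. Cells in 6-well plates (600000 per well) received Qmimic, Dmimic or the negative control AllStar, each at 10 nM with Lipofectamine 2000. Total RNA was taken after 48 h from 3 biological replicates per group, as the labels call them, and each was put on 1 array. The labels give neither mimic a sequence and do not say what Q and D stand for. The series title names miR-34a and the receptor AXL. The miRNA's 5p strand is shown for this reason, but which strand or variant a mimic carries was not settled here.

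The mature strand of miR-34a is annotated by RefSeq (GRCh38.p14) at chr1:9151735-9151756 on the minus strand, and capitals mark its seed, bases 2 to 8.
miR-34a-5p: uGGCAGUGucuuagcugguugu

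CXCL8 (interleukin-8), CXCL1, CXCL2 and CXCL3 are chemokines that draw neutrophils through the receptors CXCR1 and CXCR2. IL-6, IL-11 and LIF signal through receptors that share gp130 (IL6ST) and lead to STAT3. IL-1 alpha and IL-1 beta act through IL1R1 with IL1RAP and switch on NF-kB, a transcription factor that induces many of the other genes named here. Breast cancer lines of mesenchymal type, MDA-MB-231 among them, are known for secreting IL-8 and IL-6. IL-7 is a growth factor of lymphocytes and acts through IL7R and the common gamma chain.

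The 4 chemokine genes lie in 1 cluster on chromosome 4. RefSeq places CXCL8 at chr4:73740569-73743716, CXCL1 at chr4:73869393-73871308, CXCL3 at chr4:74036589-74038689 and CXCL2 at chr4:74097040-74099195. The promoters of CXCL8 and CXCL1 are shown because these neighbours had opposite differences with Qmimic. Each run covers 250 bases before and 50 after the gene's start on the plus strand (RefSeq, GRCh38.p14). Capitals mark matches, on either strand, to TGANTCA (the AP-1 site) and GGNNNTTCC (the core of a kappa-B site, bound by NF-kB).
CXCL8, chr4:73740319-73740618: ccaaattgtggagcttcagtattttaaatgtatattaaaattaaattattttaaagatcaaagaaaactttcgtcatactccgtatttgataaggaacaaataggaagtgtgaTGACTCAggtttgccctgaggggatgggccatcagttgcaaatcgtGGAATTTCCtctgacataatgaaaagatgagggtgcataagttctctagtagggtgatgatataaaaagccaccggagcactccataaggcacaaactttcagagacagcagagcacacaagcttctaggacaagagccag
CXCL1, chr4:73869143-73869442: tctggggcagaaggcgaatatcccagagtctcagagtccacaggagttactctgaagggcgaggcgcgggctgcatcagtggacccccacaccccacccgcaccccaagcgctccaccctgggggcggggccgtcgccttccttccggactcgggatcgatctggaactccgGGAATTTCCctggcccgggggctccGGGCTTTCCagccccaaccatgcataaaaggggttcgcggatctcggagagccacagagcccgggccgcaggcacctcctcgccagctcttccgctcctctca

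In the table of promoters 8 of the 10 genes were searched, with 9 promoters because IL1A has 2. LIF had no entry there, and IL7 was left out of the search, so nothing is said of its promoter. The promoters of CXCL8, CXCL1, CXCL2, CXCL3 and IL6 held GGNNNTTCC, and 20.1% of all 35116 promoters in that table did. The letters GGAATTTCC stood at -91 in CXCL8, -78 in CXCL1, -77 in CXCL2 and -78 in CXCL3, counted from the first base of the match to the gene's start. CXCL1, CXCL2 and CXCL3 each held a second match, GGGCTTTCC, at -53, which was not in the CXCL8 window. TGANTCA was found for CXCL8 (at -137), IL11 (at -96) and both IL1A promoters, and in 7.71% of all promoters. These matches are letters in a window and were not measured as binding.

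One array needs stating before the values. AllStar replicate 3 correlated with the others at 0.974 to 0.981 across probe sets, while the other 8 arrays correlated with each other at 0.993 to 0.998. Its values were compressed, with an interquartile range of 2.99 against 3.41 to 3.53, and its signal for the small ribosomal RNA was 8.73 against 5.27 to 6.26 (log2). The labels give no ground to drop it, so differences are given with all 9 arrays and again without it. The 6 genes listed for a breast cancer line of the basal B type (VIM, CD44, AXL, CAV1 and the keratins KRT8 and KRT18) were bright, at the 96.7 percentile of mean level or above. KRT8 and KRT18 are keratins of luminal cells too, so their signal does not mark the type. Of the luminal list, CDH1 (E-cadherin) and PGR lay at the 17.2 and 24.8 percentile. The luminal genes EPCAM and GATA3 and the oestrogen receptor gene ESR1 were not low, at the 79.8, 83.3 and 69.1 percentile. Of 6 leukocyte markers 5 were measured, and they averaged 5.35 to 5.46 with Qmimic, 5.41 to 5.49 with Dmimic and 5.46 to 5.80 with AllStar. PTPRC lay at the 21.9 percentile of mean level, and CD3E, ITGAM, CD14 and CSF1R at the 50.3, 56, 57.7 and 59.6 percentile. The 5 markers of fibroblasts and endothelium averaged 5.2 to 5.33 with Qmimic, 5.28 to 5.35 with Dmimic and 5.26 to 5.58 with AllStar. The RNA came from an established line, and the part of either marker set in the cytokine signals was not tested.

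Levels below are log2 RMA signals, on which a difference of 1 is a doubling, and they can be compared between arrays for 1 probe set but not between probe sets. A probe set counts as called at a change of 1.5-fold or more with a limma p under 0.05 after Benjamini-Hochberg adjustment over the 54613 probe sets. In bulk RNA, fewer cells with a transcript and less transcript per cell cannot be told apart. With all 9 arrays, 0 of the 16 cytokine probe sets were called with Qmimic against AllStar, where 0% of all probe sets were called, and 8924 of them reached an unadjusted limma p under 0.05. Against AllStar, 0 of 16 were called with Dmimic (0.00549% of all probe sets) and 0 of 16 over both mimics (0.0806%). For Qmimic against Dmimic 0 of 16 were called too, where limma called 0% of all probe sets although 1318 reached p under 0.05 before adjustment.

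Without AllStar replicate 3 the same limma model called 1 of 16 with Qmimic against AllStar (0.54% of all probe sets), 0 of 16 with Dmimic (0.864%) and 0 of 16 over both mimics (0.721%). It called 3 of 16 for Qmimic against Dmimic, where 0.0806% of all probe sets were called. The 3 were both CXCL8 probe sets and IL7, and the 1 with Qmimic was a CXCL8 probe set. As these contrasts were known when the genes were chosen, nothing is read from the share. Over the 10 genes, each by its brightest probe set, the median log2 difference with all 9 arrays was 0.17 with Qmimic, 0.05 with Dmimic and 0.08 for Qmimic minus Dmimic. Over all 19775 genes those medians were -0.02, -0.01 and -0.01. Without AllStar replicate 3 the medians were 0.14, 0.08 and 0.08 over the 10 genes, and -0.01, 0.01 and -0.01 over all genes. The medians over all genes were not matched to the cytokines for level.

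**Figure D1:**
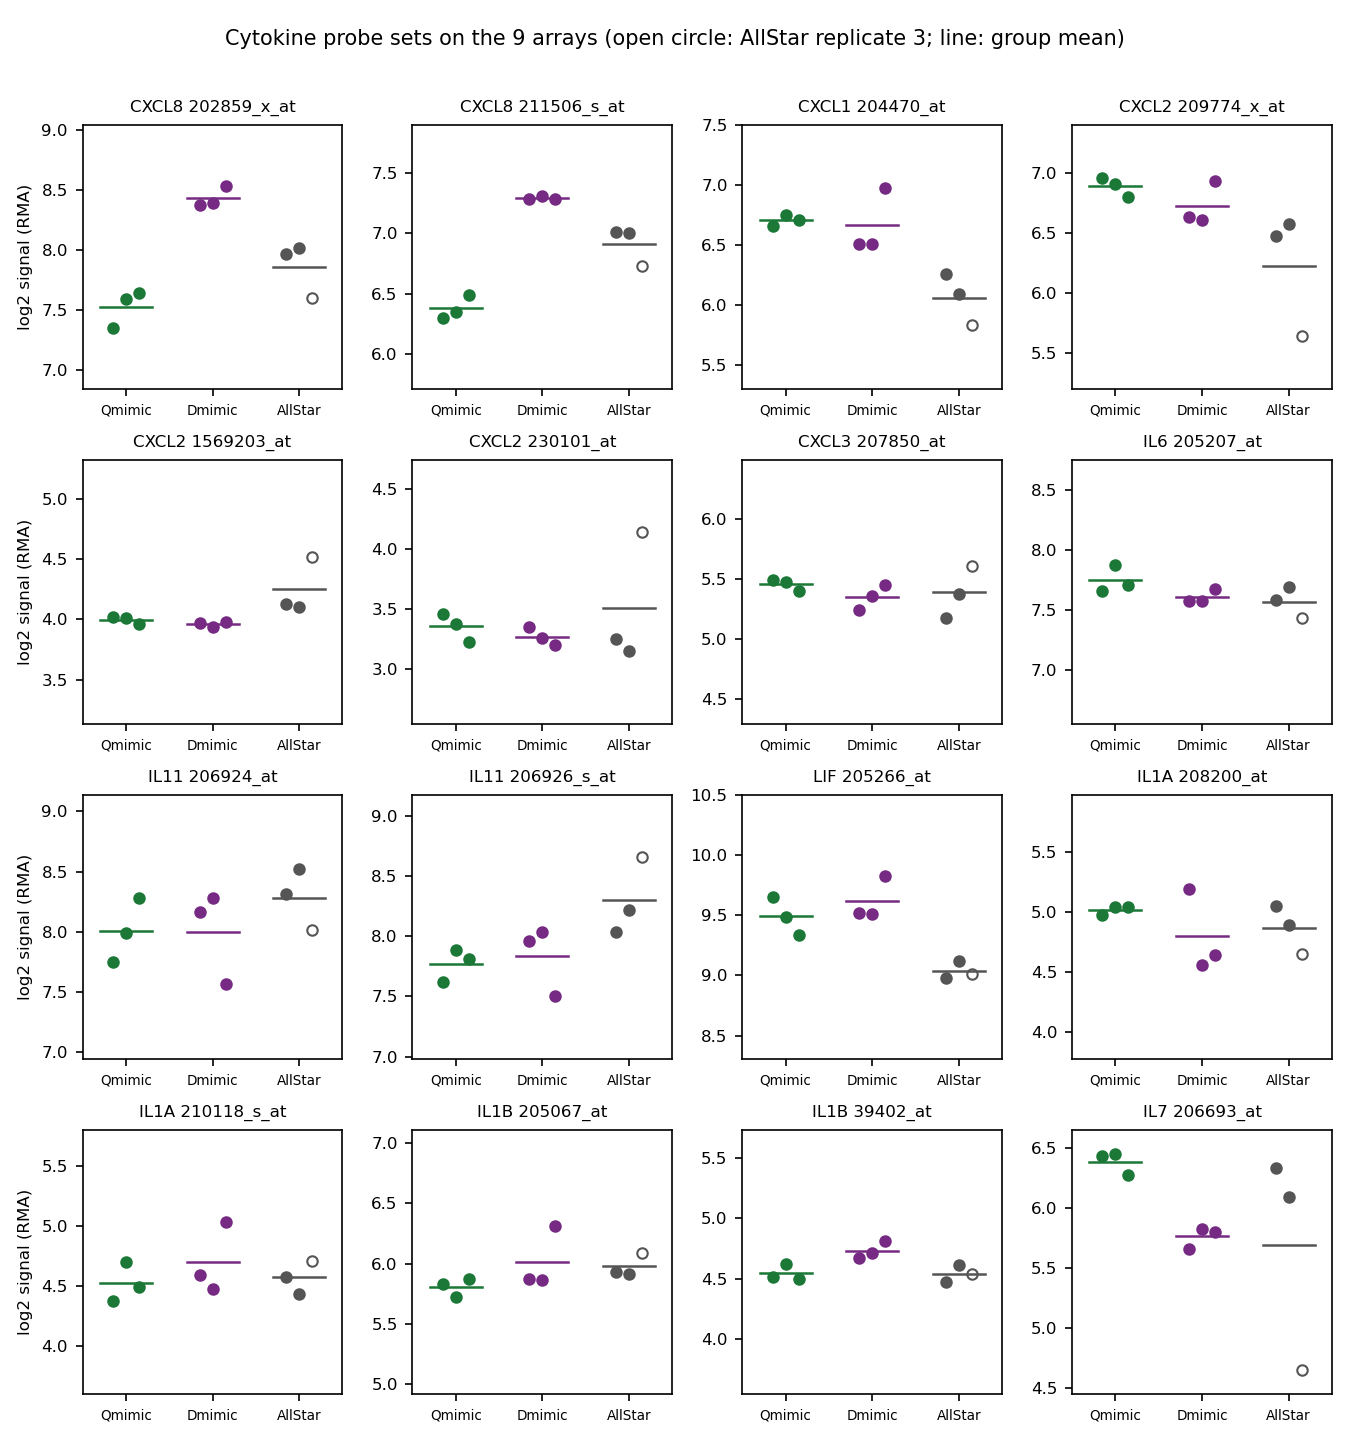
Each panel plots the log2 RMA signal (y axis) of 1 of the 16 cytokine probe sets on the 9 arrays, with Qmimic, Dmimic and AllStar from left to right; points are arrays, the open circle is AllStar replicate 3 and lines are means of 3 arrays. On both CXCL8 probe sets the Dmimic arrays lay above and the Qmimic arrays below AllStar replicates 1 and 2, whereas CXCL1 and LIF were high with both mimics.

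CXCL8 separated the mimics. It was lower than AllStar with Qmimic and higher than AllStar with Dmimic, so that the mimics differed by 1.87-fold and 1.89-fold on its probe sets. On 202859_x_at the signal was 7.35, 7.59 and 7.64 with Qmimic, 8.37, 8.39 and 8.53 with Dmimic, and 7.96, 8.01 and 7.60 with AllStar. The 3 Dmimic arrays were the highest of the 9, and Qmimic overlapped AllStar only through AllStar replicate 3. On 211506_s_at it was 6.30, 6.35 and 6.49 with Qmimic, 7.29, 7.31 and 7.29 with Dmimic, and 7.01, 7.00 and 6.73 with AllStar. There the 3 groups did not overlap at all.

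Qmimic minus Dmimic was -0.90 (SE 0.13, 95% interval -1.19 to -0.62) on the first CXCL8 probe set and -0.92 (SE 0.10, -1.14 to -0.69) on the second. Leaving out AllStar replicate 3 kept the estimates, since neither group holds that array, but the spread shared by the fit was smaller (SE 0.084 and 0.065) and both were called. Both were called as well when only the 6 mimic arrays were fitted. The 2 probe sets followed each other with a correlation of 0.96 over 9 arrays and 0.97 over 8. They report on 1 gene in the same RNA and are not separate replicates.

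Against AllStar the size of each CXCL8 difference depended on the probe set and on the control arrays. With Qmimic it was -0.33 (SE 0.13) and -0.53 (SE 0.10) with all 9 arrays, and -0.46 (SE 0.094) and -0.62 (SE 0.072) without AllStar replicate 3, where the second was called (1.54-fold lower). With Dmimic it was 0.57 (SE 0.13) and 0.38 (SE 0.10) with all 9 arrays, and 0.44 (SE 0.094) and 0.29 (SE 0.072) without that array. The offset of AllStar replicate 3 from the mean of the other AllStar arrays was -0.39 and -0.28. Its median over all probe sets within 0.5 of each level was -0.48 and -0.29. Averaged over both mimics the opposite signs cancelled, with values of 0.12 and -0.07 with all 9 arrays and -0.01 and -0.17 without that array.

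**Figure D2:**
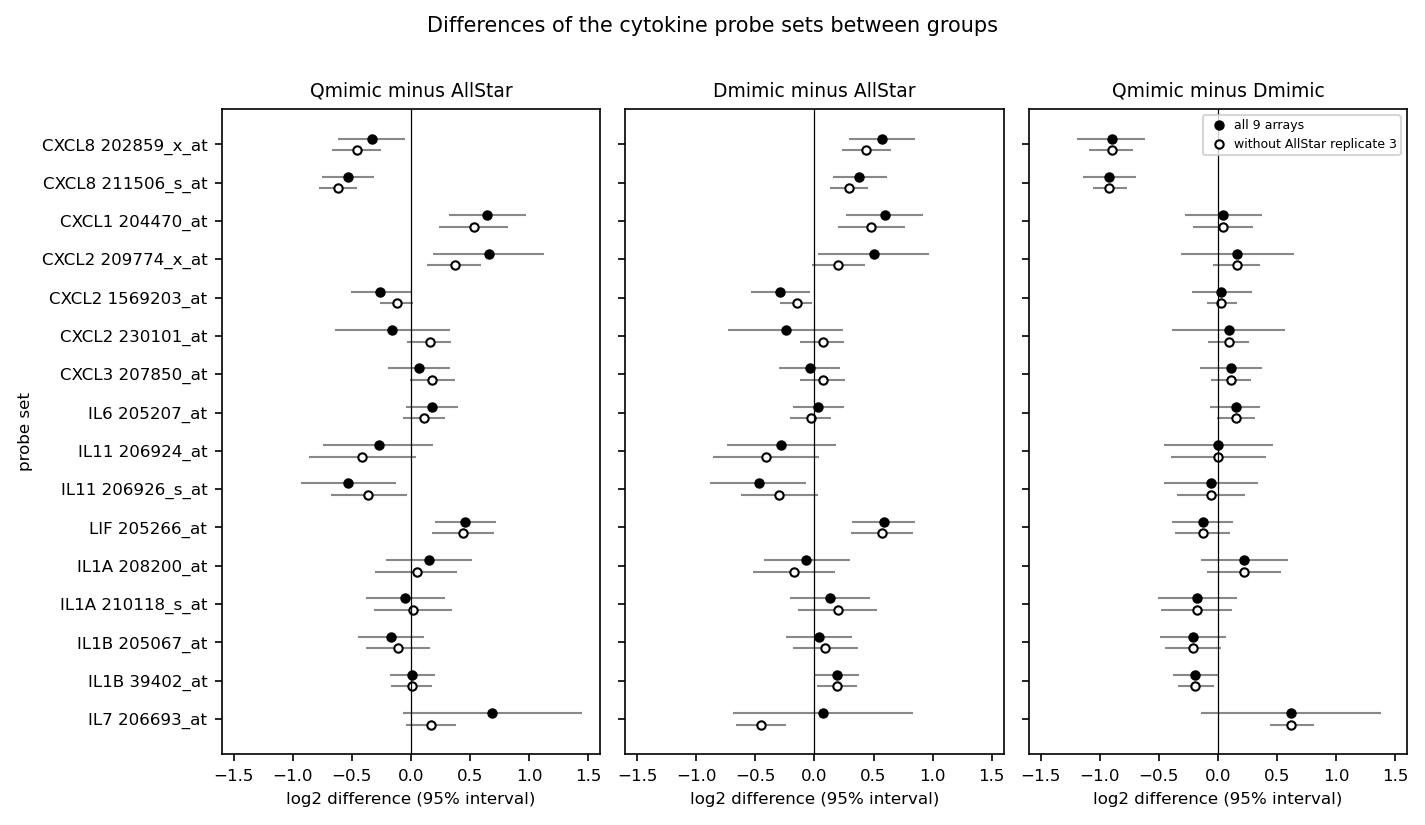
Log2 differences (x axis, with 95% intervals from limma) of the 16 cytokine probe sets (y axis) for Qmimic minus AllStar, Dmimic minus AllStar and Qmimic minus Dmimic; filled circles use all 9 arrays and open circles leave out AllStar replicate 3. CXCL8 lay at -0.90 and -0.92 in the last panel, where IL7 stood at 0.62 and every other probe set within 0.22 of 0.

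CXCL1, a close relative of CXCL8 in the same gene cluster, was higher than AllStar with both mimics. Its signal was 6.66, 6.75 and 6.71 with Qmimic, 6.51, 6.51 and 6.97 with Dmimic, and 6.26, 6.09 and 5.83 with AllStar. All 6 mimic arrays were above all 3 AllStar arrays. The difference was 0.64 (SE 0.15) with Qmimic and 0.60 (SE 0.15) with Dmimic, sizes of 1.56-fold and 1.51-fold that were not called. With AllStar replicate 3 left out they were 0.53 and 0.48 (SE 0.13 each). Qmimic minus Dmimic was 0.04, with an interval of -0.28 to 0.37.

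CXCL2, a close relative of CXCL1, was reported by 3 probe sets that did not move alike. On the brightest, 209774_x_at, the signal was 6.96, 6.91 and 6.80 with Qmimic, 6.63, 6.61 and 6.93 with Dmimic, and 6.47, 6.57 and 5.64 with AllStar. The mimic arrays were all above AllStar, by 0.66 (SE 0.21) with Qmimic and 0.50 (SE 0.21) with Dmimic. AllStar replicate 3 was offset by -0.88 from the other AllStar arrays there, and without it the differences were 0.37 and 0.20 (SE 0.10 each), a change of over 1.5 times. The dim probe sets 1569203_at and 230101_at, at the 25.2 and 11 percentile of level, gave -0.26 and -0.16 with Qmimic and -0.29 and -0.24 with Dmimic with all 9 arrays. On these 2 AllStar replicate 3 was the highest of the 9 arrays, at 4.52 and 4.14, and without it they gave -0.12 and 0.16 with Qmimic and -0.15 and 0.07 with Dmimic. On 1569203_at every mimic array lay below every AllStar array, opposite to the brightest probe set.

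CXCL3 completes the trio of near-identical chemokines. Its signal was 5.49, 5.48 and 5.40 with Qmimic, 5.24, 5.36 and 5.45 with Dmimic, and 5.18, 5.38 and 5.61 with AllStar. The groups overlapped, and the difference was 0.07 (SE 0.12) with Qmimic and -0.04 (SE 0.12) with Dmimic. On the 8 other arrays it was 0.18 and 0.07 (SE 0.086 each). Because mRNAs of CXCL1, CXCL2 and CXCL3 are alike, and the suffix x marks probe sets whose probes also match other transcripts, a signal of one may hold a part of another. The CXCL8 probe set 202859_x_at bears the suffix x as well, so its signal may also hold a part of other transcripts. The files used here give no probe sequences to test either point.

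LIF, which keeps mouse embryonic stem cells undifferentiated and acts through LIFR and gp130, was higher with both mimics. The signal was 9.65, 9.49 and 9.34 with Qmimic, 9.52, 9.51 and 9.83 with Dmimic, and 8.98, 9.12 and 9.01 with AllStar. The 6 mimic arrays did not overlap AllStar, and AllStar replicate 3 lay between the other AllStar arrays. The difference was 0.46 (SE 0.12, interval 0.20 to 0.72) with Qmimic and 0.59 (SE 0.12, interval 0.32 to 0.85) with Dmimic, a 1.5-fold change that was not called. On the 8 other arrays it was 0.44 and 0.57 (SE 0.12 each), so this array did not set it. On the arrays as a whole, probe sets of like level were offset by a median of -0.45 on AllStar replicate 3, where LIF was offset by -0.04. After cyclic loess normalisation the LIF differences were 0.28 with Qmimic and 0.42 with Dmimic, which moves the Qmimic value by over 1.5 times.

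IL6, the acute-phase cytokine, had overlapping signals. They were 7.66, 7.87 and 7.71 with Qmimic, 7.57, 7.57 and 7.67 with Dmimic, and 7.58, 7.69 and 7.43 with AllStar. The difference was 0.18 (interval -0.04 to 0.40) with Qmimic and 0.03 (interval -0.18 to 0.25) with Dmimic. A change inside these intervals could not be told from none with 3 arrays a group. The values became 0.11 and -0.03 without AllStar replicate 3, and 0.04 and -0.09 after cyclic loess normalisation, so the sign with Dmimic was not settled.

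IL11, a gp130 cytokine linked to bone metastasis of breast cancer, was read by 2 probe sets. On 206924_at the signal was 7.75, 7.99 and 8.28 with Qmimic, 8.16, 8.28 and 7.56 with Dmimic, and 8.31, 8.52 and 8.01 with AllStar. On 206926_s_at it was 7.62, 7.89 and 7.81 with Qmimic, 7.96, 8.04 and 7.50 with Dmimic, and 8.04, 8.22 and 8.66 with AllStar. They parted on AllStar replicate 3, where the first was the lowest and the second the highest of the AllStar values. Their correlation was 0.52 over 9 arrays and 0.93 over the 8 without it.

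The IL11 difference was -0.27 (SE 0.21) and -0.53 (SE 0.18) with Qmimic, and -0.28 (SE 0.21) and -0.47 (SE 0.18) with Dmimic, none of them called. With the 8 other arrays both probe sets came closer, at -0.41 (SE 0.20) and -0.36 (SE 0.15) with Qmimic and -0.41 (SE 0.20) and -0.30 (SE 0.15) with Dmimic. Dmimic replicate 3 was the lowest of the 9 arrays on both probe sets. Mean IL11 signals were thus lower with both mimics on both probe sets, while those of LIF were higher.

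IL1A and IL1B encode the IL-1 cytokines, of which IL-1 alpha also acts as an alarm signal from dying cells. All 4 probe sets lay in the dimmer range, between the 34.8 and 56.9 percentile of level. On the brighter IL1A probe set, 208200_at, the signal was 4.97, 5.04 and 5.04 with Qmimic, 5.19, 4.56 and 4.64 with Dmimic, and 5.05, 4.89 and 4.65 with AllStar. The groups overlapped, with differences of 0.15 (SE 0.16) and -0.07 (SE 0.16), and the second IL1A probe set gave -0.05 and 0.13 (SE 0.15 each). Leaving out AllStar replicate 3 gave 0.05 with Qmimic and -0.17 with Dmimic on 208200_at. On 210118_s_at it gave 0.02 and 0.20, so the sign with Qmimic turned. The 2 IL1A probe sets did not track each other (correlation -0.33 over 9 arrays).

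For IL1B the signal on 205067_at was 5.83, 5.72 and 5.87 with Qmimic, 5.87, 5.86 and 6.31 with Dmimic, and 5.93, 5.91 and 6.09 with AllStar. All 3 Qmimic arrays were below AllStar, with a difference of -0.17 (SE 0.13), and Dmimic overlapped it. On 39402_at it was 4.51, 4.62 and 4.50 with Qmimic, 4.67, 4.71 and 4.81 with Dmimic, and 4.47, 4.61 and 4.54 with AllStar. There Dmimic was above both other groups, by 0.19 over AllStar (SE 0.085), and Qmimic minus Dmimic was -0.19 (SE 0.085) on this probe set and -0.21 (SE 0.13) on 205067_at. Leaving out AllStar replicate 3 gave -0.11 with Qmimic and 0.09 with Dmimic on 205067_at, where these differences with all 9 arrays were -0.17 and 0.04. On 39402_at it gave 0.01 and 0.19, as with all 9 arrays.

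IL7 was the other member that differed between the mimics, in the direction opposite to CXCL8. Its signal was 6.43, 6.45 and 6.27 with Qmimic, 5.66, 5.82 and 5.80 with Dmimic, and 6.33, 6.09 and 4.65 with AllStar. The mimic groups did not overlap, AllStar replicate 1 lay among the Qmimic values, AllStar replicate 2 just below them, and AllStar replicate 3 was the lowest of all 9 arrays. Qmimic minus Dmimic was 0.62, a 1.54-fold difference, with a standard error of 0.34 with all 9 arrays and 0.084 without AllStar replicate 3, where it was called. That array was offset by -1.56 from the other AllStar arrays, against a median offset of 0.08 for probe sets of like level, and only 0.0834% of those were offset as low or lower.

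The IL7 difference from AllStar was thus decided by 1 array. It was 0.69 (SE 0.34) with Qmimic and 0.07 (SE 0.34) with Dmimic with all 9 arrays, against 0.17 (SE 0.094) and -0.45 (SE 0.094) without AllStar replicate 3. The sign with Dmimic turned round. The single IL7 probe set allows no check against another.

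**Figure D3:**
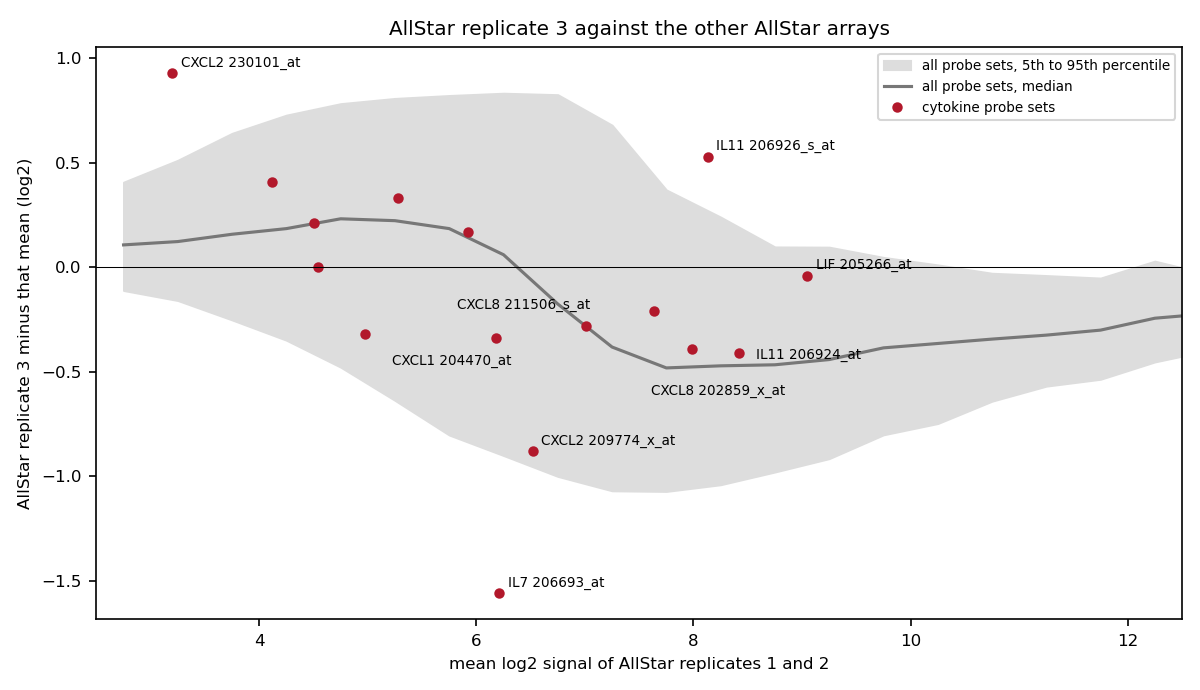
AllStar replicate 3 minus the mean of AllStar replicates 1 and 2 (y axis, log2) against that mean (x axis, log2 signal) for the 16 cytokine probe sets (red), with the median (line) and the range from the 5th to the 95th percentile (grey) of all probe sets in steps of level. IL7 at -1.56, IL11 206926_s_at at 0.53 and CXCL2 230101_at at 0.93 lay outside the grey range, and the CXCL8 probe sets at -0.39 and -0.28 lay near the line.

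Counting arrays in place of sizes, 7 of the 16 probe sets did not overlap between Qmimic and AllStar with all 9 arrays (3 above, 4 below), where 24.8% of all probe sets did not overlap. For Dmimic and AllStar it was 7 (6 above, 1 below; 18.9% of all), and for Qmimic and Dmimic 4 (1 above, 3 below; 16.1% of all). Without AllStar replicate 3 the counts were 10 for Qmimic (37.9% of all) and 9 for Dmimic (33.5% of all). CXCL1, LIF and CXCL2 209774_x_at were the probe sets that lay above AllStar on all 6 mimic arrays. CXCL2 1569203_at lay below AllStar on all 6, and so did IL11 206924_at without AllStar replicate 3. The share of all probe sets that did so on all 6 was not computed, so nothing is read from these. Both comparisons share the AllStar arrays, so their values are set side by side only.

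The genes whose pattern over the 9 arrays was most like CXCL8 (202859_x_at), among 11309 genes with a mean log2 signal of at least 6, were FST, UACA, ANKRD37, CDC34 and ZFP91. FST encodes follistatin, which binds activins, and had a Pearson r of 0.982. It averaged 10.02 with Qmimic, 10.94 with Dmimic and 10.42 with AllStar. The r of the others was 0.977 (UACA), 0.971 (ANKRD37), 0.968 (CDC34, a ubiquitin-conjugating enzyme) and 0.967 (ZFP91). Over the 8 arrays without AllStar replicate 3 the closest were CUL5 (0.992), APOLD1 (0.990), FST (0.990), APPL2 (0.989) and BRWD1 (0.985). FST alone was in both sets of 5. The points are 3 groups of arrays with close replicates, so the correlations mostly compare 3 group means.

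**Figure D4:**
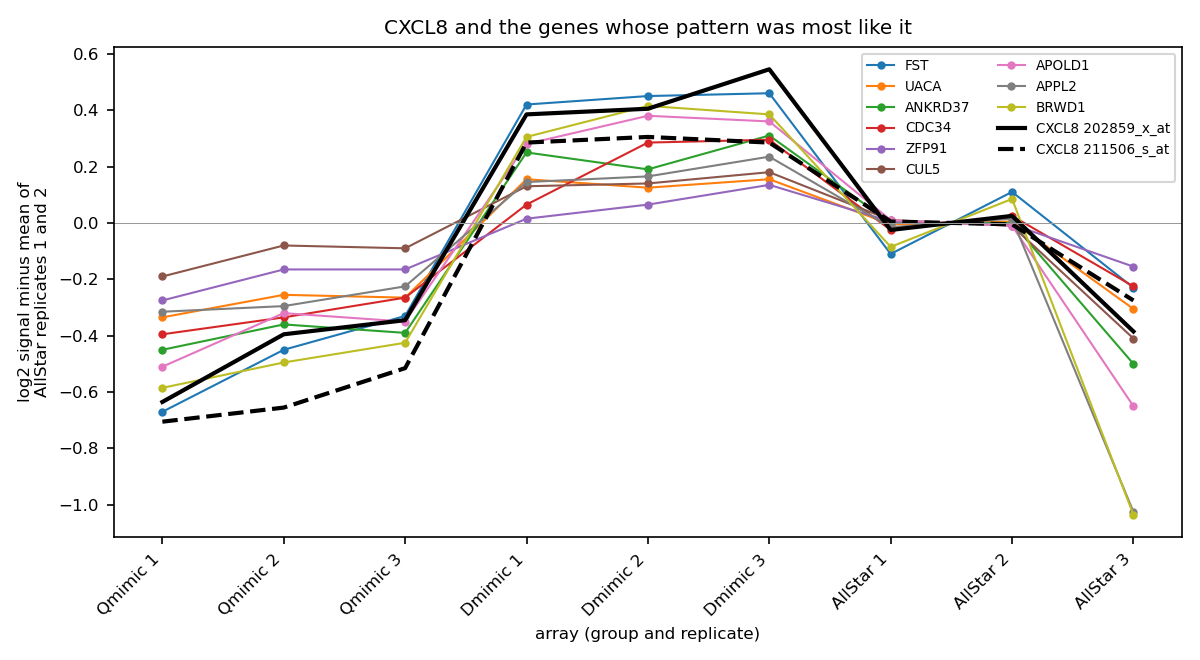
Log2 signal minus the mean of AllStar replicates 1 and 2 (y axis) on each of the 9 arrays (x axis) for both CXCL8 probe sets (black) and the 9 genes named as most like CXCL8 over 9 or 8 arrays (colours). All the lines lay below 0 with Qmimic and above 0 with Dmimic, and CUL5, ANKRD37, APOLD1, APPL2 and BRWD1 had their lowest values on AllStar replicate 3.

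The receptors and regulators of these cytokines were taken from 11 lists with 102 symbols, of which 95 were measured. With all 9 arrays limma called 0 of the 95 with Qmimic, 0 with Dmimic and 0 for Qmimic against Dmimic, and over both mimics it called 1 lower and 0 higher. Without AllStar replicate 3 it called 1 higher and 1 lower with Qmimic, 0 higher and 1 lower with Dmimic, 1 higher and 1 lower over both mimics, and 0 between the mimics. Of all 54613 probe sets, 0.0806% were called over both mimics with all 9 arrays. Without AllStar replicate 3 the share was 0.54% with Qmimic, 0.864% with Dmimic, 0.721% over both mimics and 0.0806% between the mimics. The genes of the lists called were FOSL1, IL1RAP and SOD2. The lists and named genes were chosen with earlier results of these data known. Their calls and the adjusted p-values given below are therefore a description and no independent evidence. The median log2 difference over the 95 was 0.17 with Qmimic and 0.12 with Dmimic with all 9 arrays, and 0.05 and 0.03 without AllStar replicate 3.

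IL1RAP, the co-receptor that IL-1 needs for signalling, was called higher over both mimics without AllStar replicate 3. Its signal was 8.71, 8.63 and 8.40 with Qmimic, 8.43, 8.19 and 9.09 with Dmimic, and 7.70, 7.70 and 7.22 with AllStar. All 6 mimic arrays lay above AllStar, by 0.88 over both mimics without AllStar replicate 3 (SE 0.18, limma adjusted p = 0.0366) and 1.04 with it (SE 0.19, limma adjusted p = 0.0605). It was called on 1 of its 2 probe sets. IL1R1 itself differed by 0.20 with Qmimic and 0.07 with Dmimic, and the IL-1 receptor antagonist IL1RN by -0.36 and -0.19, none of them called. Leaving out AllStar replicate 3 gave 0.10 and -0.03 for IL1R1 and -0.22 and -0.06 for IL1RN, so the sign of IL1R1 with Dmimic turned.

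Of the gp130 receptors 0 of 5 were called, each by its brightest probe set. LIFR differed by 0.75 with Qmimic (SE 0.20, limma adjusted p = 0.193) and 0.47 with Dmimic, and by 0.47 (SE 0.076, limma adjusted p = 0.0202, under 1.5-fold) and 0.19 without AllStar replicate 3. In that fit 1 of the 5 LIFR probe sets, a dimmer one, passed with Qmimic. IL6ST differed by 0.47 and 0.39, IL11RA by 0.36 and 0.45 and IL6R by -0.22 and -0.08 with all 9 arrays. On the 8 arrays they differed by 0.33 and 0.25 (IL6ST), 0.16 and 0.25 (IL11RA) and -0.03 and 0.11 (IL6R), where the sign of IL6R with Dmimic turned. CXCR1 and CXCR2, the receptors of the CXCL chemokines, differed by -0.22 and 0.04 with Qmimic and by -0.11 and 0.03 with Dmimic. On the 8 arrays it was -0.15 and 0.11 with Qmimic and -0.04 and 0.10 with Dmimic. IL7R differed by 0.13 with Qmimic and 0.22 with Dmimic with all 9 arrays, and by 0.04 and 0.13 on the 8.

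Of 14 measured NF-kB subunits, kinases and inhibitors none was called, with all 9 arrays or without AllStar replicate 3. NFKB1 differed by 0.11 with Qmimic and -0.01 with Dmimic, RELA by 0.20 and 0.18, the inhibitor NFKBIA by 0.37 and 0.16, and the ubiquitin-editing inhibitor TNFAIP3 by 0.20 and 0.12. The 8 arrays without AllStar replicate 3 gave 0.07 and -0.05 for NFKB1, 0.24 and 0.23 for RELA, 0.22 and 0.01 for NFKBIA, and 0.04 and -0.04 for TNFAIP3, whose sign with Dmimic turned. The median of this list was 0.23 with Qmimic and 0.17 with Dmimic, and 0.09 and 0.02 without AllStar replicate 3. Among other NF-kB target genes SOD2, the mitochondrial superoxide dismutase, was called higher with Qmimic without that array. Its signal was 6.46, 6.78 and 6.45 with Qmimic, 6.28, 6.00 and 6.10 with Dmimic, and 6.01, 5.84 and 6.30 with AllStar. The SOD2 difference with Qmimic was 0.64 without AllStar replicate 3 (SE 0.12, limma adjusted p = 0.0309) and 0.51 with it (limma adjusted p = 0.204).

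FOSL1, an AP-1 subunit, was the 1 gene of the lists called with all 9 arrays, 2.06-fold lower over both mimics (limma adjusted p = 0.0401). Its difference was -1.05 with Qmimic and -1.03 with Dmimic (SE 0.16 each) with all 9 arrays, and -1.14 and -1.12 (SE 0.15 each) without AllStar replicate 3. Qmimic minus Dmimic was -0.02 for FOSL1 (SE 0.16), beside -0.90 and -0.92 for CXCL8, and a link between these genes was not tested. C/EBP beta (CEBPB) differed by 0.20 and 0.25, STAT3 by -0.13 and 0.10, its inhibitor SOCS3 by 0.09 and 0.23, and ZFP36, which destabilises cytokine mRNAs with AU-rich elements, by -0.02 and 0.05, none of them called. The 8 arrays without AllStar replicate 3 gave 0.06 and 0.10 for CEBPB, -0.18 and 0.04 for STAT3, -0.06 and 0.07 for SOCS3, whose sign with Qmimic turned, and -0.02 and 0.05 for ZFP36. Of 21 other cytokines and chemokines measured, among them CCL2, CSF1 and VEGFA, none was called in any comparison, with all 9 arrays or without AllStar replicate 3. With all 9 arrays Qmimic minus Dmimic was positive for 10 of them, among which CSF1 at 0.59 (SE 0.13), and negative for 11. The median difference of the 21 from AllStar was -0.07 with Qmimic and -0.05 with Dmimic with all 9 arrays. It was -0.01 and 0.03 on the 8 arrays, where the sign with Dmimic turned.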

How the data were processed

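MDA-MB-231 RNA of 9 wells was measured on Affymetrix HG-U133 Plus 2.0 arrays. The deposited log2 values, 1 per probe set, were made by the authors with RMA, per the labels (the series text names AFFYGUI and limma); versions are not given in the sources used here. The table held 54675 probe sets, and 62 controls were set aside. Names came from the platform annotation: 41091 probe sets have 1 symbol, 1801 several and 11721 none. One limma 3.58.1 model (R 4.3.3) of the 3 groups covered 54613 probe sets on 9 arrays, with eBayes and Benjamini-Hochberg adjustment over all of them. The same model was also run on simulated data with implanted changes. Each probe set there had the same spread on every array, so that run says nothing of an array like AllStar replicate 3. The median 95% half-width of a difference from AllStar was 0.26 log2, and arrays give no depth: their number limits the precision.

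The cytokines, lists and named genes were chosen with earlier results of these data known. All member probe sets are described. The brightest probe set stands for a gene. Genes like CXCL8 are the 5 with the highest Pearson r. Of the lists, 19 regulators and receptors were named whatever their result, plus those called. The main model did not pair arrays by replicate number. Residuals of 3 of 9 pairs with a shared number correlated above 0.1 (range -0.275 to 0.219). AllStar replicate 3 enters the residuals of all AllStar arrays, and pairs with unlike numbers were not compared. These correlations therefore cannot decide whether replicates were paired. Alternatives were the replicate block, each array left out, the arrays compared alone, array weights, quantile and cyclic loess normalisation, median centring, a filter on level and other fold thresholds. Sequences are RefSeq's (GRCh38.p14).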

Additional observations from a re-analysis of the deposited data

Results flagged for a closer look

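The effect of a mimic relative to AllStar differed between Qmimic and Dmimic for 3 probe sets of the cytokines, by the limma contrast of the mimics in the fit without AllStar replicate 3. Qmimic minus Dmimic was -0.90 (CXCL8, 202859_x_at), -0.92 (CXCL8, 211506_s_at) and 0.62 (IL7, 206693_at) on the log2 scale. All 3 Qmimic arrays lay on one side of all 3 Dmimic arrays in each. With all 9 arrays none of the 3 was called. The genes were chosen with this contrast known, so these values are no independent evidence.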

How the results depend on the processing

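No member was called with all 9 arrays, and none with the replicate block, after median centring, among the brighter probe sets, by adjusted p alone, at a log2 change of 1.5 or without any 1 of the 8 arrays other than AllStar replicate 3. With Qmimic against AllStar the count of 0 became 2 with array weights (CXCL8 211506_s_at and CXCL1), and 1 with cyclic loess or without AllStar replicate 3 (CXCL8 211506_s_at both times). Over both mimics it became 1 with cyclic loess (CXCL1). For Qmimic against Dmimic it became 3 with array weights, with the mimic arrays alone or without AllStar replicate 3, and 2 with repeated quantile normalisation or cyclic loess. The array weights gave AllStar replicate 3 a weight of 0.0572, and their estimate did not fully converge. Without AllStar replicate 3, leaving out 1 more array gave 0 to 1 for Qmimic against AllStar, which was 0 without AllStar replicate 1, AllStar replicate 2 or Qmimic replicate 1. Leaving out AllStar replicate 1 or 2 leaves 1 AllStar array, which is assumed to vary like the mimic arrays. Leaving out 1 more array gave 0 to 1 for Dmimic (LIF, without Dmimic replicate 2) and 2 to 3 between the mimics, where both CXCL8 probe sets passed each time and IL7 did not pass without Dmimic replicate 1, Dmimic replicate 3, Qmimic replicate 1 or Qmimic replicate 2; these second omissions were chosen after seeing the data. Of 921 values of the other 15 probe sets under alternatives, 27 moved by more than the spread between replicates and 47 changed sign. None of those that changed sign was larger than 0.38 in size with all 9 arrays. The spread was taken over all 9 arrays, so AllStar replicate 3 widens it where that array stands apart. By this measure leaving that array out moved 0 values, although IL7 with Dmimic went from 0.07 to -0.45. The differences of both CXCL8 probe sets moved by less than that spread in each alternative. The replicate block left those of 202859_x_at as they were: -0.33 with Qmimic, 0.57 with Dmimic and -0.90 between the mimics.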
